A study of Gossypium hirsutum with 8 samples.

Results

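The gene cdn1 (LOC107903500 in RefSeq, with the further synonyms cdn1-C4 and cdn1-C5) encodes a delta-cadinene synthase of upland cotton. It was followed on the Affymetrix cotton array through every probe set, a group of short oligonucleotides read together, that the platform's probe table ties to this gene alone. One such probe set was found among the 24029 tested, so 1 gene of the 520 with a probe set of their own (697 probe sets) is described. The gene was chosen because earlier results from these arrays showed more of its transcript in root than in leaf, less of it in flooded root and more of it in flooded leaf. Those values are therefore given as a description, with no test, and the tests concern other genes. Glasshouse plants of cultivar Sicot 71 at the two-leaf stage were either watered as usual or had the whole root system below the hypocotyl put under water. The 8 arrays, each of total RNA, form 4 groups of 2 biological replicates. They are whole root flooded for 4 h, whole root of control plants, first leaf of plants flooded for 24 h, and first leaf of control plants. Tissue and time of flooding change together, so a difference between the root and leaf responses cannot be told apart from one between 4 h and 24 h.

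Delta-cadinene synthase folds farnesyl diphosphate, the common precursor of sesquiterpenes and sterols, into delta-cadinene. This is the first step that commits carbon to gossypol and the related sesquiterpene aldehydes, the defence compounds of cotton. Cytochrome P450 enzymes then oxidise delta-cadinene. Roots are a known site of gossypol synthesis, and the compound is stored in the pigment glands of leaves, stems and seeds. The synthases form a family of closely similar genes. The identifier of the cdn1 probe set ends in x_at, which marks, in the manufacturer's naming, a probe set with probes that may also match other transcripts; 6.48% of the tested probe sets carry it. The cdn1 signal may thus hold contributions from other family members or from the A and D copies that this tetraploid species carries. In the RefSeq gene table cdn1 lies on a chromosome of the D subgenome between LOC107903504, a protein-coding gene, and LOC107903501. None of the 120 nearest genes there (60 on each side) is tied to a probe set, so cdn1 could not be set beside its neighbours.

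Signals were log2 values from RMA, a method that corrects background, as a rule normalizes between arrays, and summarises the probes of a set. On this scale 1 unit is a 2-fold difference. Array medians were 6.14 to 6.17 in root and 5.32 to 5.41 in leaf, and the lowest values were 3.99 to 4.10 and 2.49 to 2.65; levels of root and leaf therefore cannot be read off one scale. RCA1 (rubisco activase, which keeps the carbon-fixing enzyme of leaves active), the 1 leaf marker with a named probe set, read 14.51 to 14.66 on the leaf arrays and 5.22 to 5.89 on the root arrays. Arrays of a group correlated across probe sets at r = 0.953 in control root, 0.991 in flooded root, 0.984 in control leaf and 0.994 in flooded leaf. The number of arrays limits the precision. In whole tissue, fewer cells of a type and less RNA per cell cannot be told apart.

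In root, cdn1 was among the brightest probe sets of the array. It read 11.52 and 11.54 on the control root arrays and 10.60 and 10.13 on the flooded root arrays. Both flooded arrays lay below both control arrays, as 46.4% of all probe sets did in one direction or the other. The group means were 11.53 ± 0.01 and 10.36 ± 0.34 (SD, n = 2), a difference of -1.17 on the log2 scale (SE 0.25 in the fit across all probe sets), or 2.25-fold lower in flooded root. Control root replicate 2 was the array whose reporter probe sets, which by their names read foreign marker genes, were brightest (95th percentile 7.12, against 5.96 on control root replicate 1). The cdn1 values of these arrays differed by only 0.02, and without either one the difference was -1.16 or -1.18.

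In leaf, cdn1 was dim. It read 4.06 and 3.95 on the control leaf arrays, where the reporter probe sets had means of 4.17 and 4.06. It read 4.99 and 5.60 on the flooded leaf arrays, where those means were 3.95 and 3.99. Both flooded arrays lay above both control arrays, and 56.5% of all probe sets had leaf groups that did not overlap. The group means were 4.00 ± 0.08 and 5.30 ± 0.43 (SD, n = 2), a log2 difference of 1.29 (SE 0.25), or 2.45-fold higher in flooded leaf. The control leaf values lay at the level of the reporter probe sets, so the fold is a lower limit if that level is background. Of the flooded leaf arrays, replicate 2 was above the 95th percentile of its reporter probe sets (5.45) and replicate 1 was below its own (5.45). Without flooded leaf replicate 2 the difference was 0.99, and without replicate 1 it was 1.60.

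**Figure D1:**
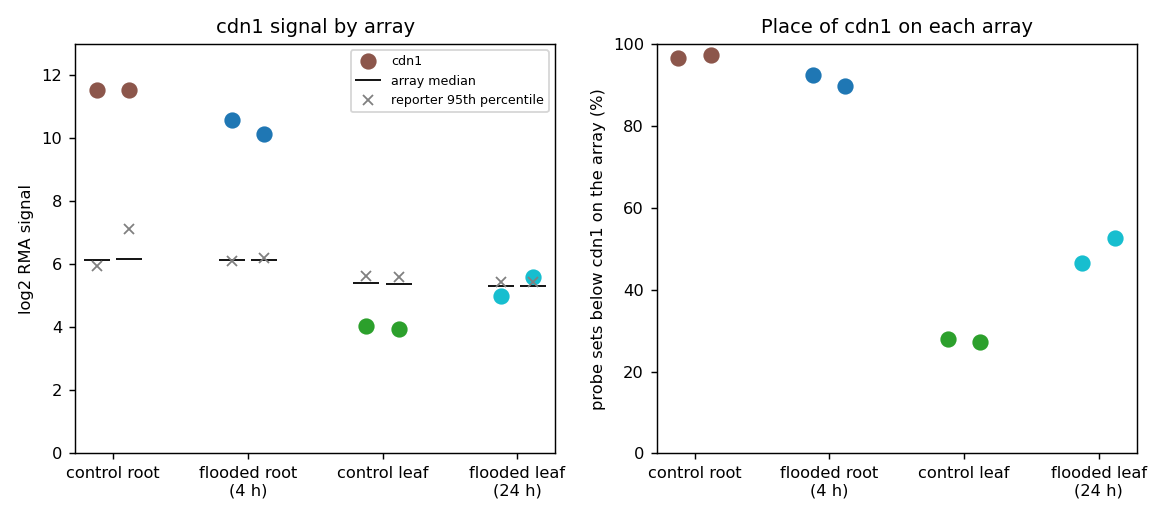
The left panel gives the log2 RMA signal of cdn1 (circles) on each of the 8 arrays, with the median of all probe sets (bars) and the 95th percentile of that array's reporter probe sets (crosses). The right panel gives the percentage of probe sets that lay below cdn1 on each array. Root circles lie at 10.13 to 11.54, far above the medians and crosses, and control leaf circles at 3.95 and 4.06 lie below them.

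A place within each array needs no common scale. Of all probe sets, 96.6% and 97.3% lay below cdn1 on the control root arrays, and 92.5% and 89.6% on the flooded root arrays. On the control leaf arrays 28.0% and 27.1% lay below it, and on the flooded leaf arrays 46.4% and 52.6%. The order of the groups was thus control root, flooded root, flooded leaf and control leaf, by signal and by place. Between the nearest arrays of neighbouring groups the gaps were 0.92 (control over flooded root), 4.52 (flooded root over flooded leaf) and 0.93 (flooded over control leaf). The ranges within groups were 0.02 in control root, 0.48 in flooded root, 0.61 in flooded leaf and 0.11 in control leaf. This order is the one the gene was chosen for, and gaps and ranges are given only to describe it.

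The distance between root and leaf, also among the values that chose the gene, was 7.53 log2 units in control plants as deposited, and 30 of the 24029 probe sets (0.125%) had a larger one. With cdn1 in control leaf at the level of the reporter probe sets, which may be background, neither this distance nor the rank is exact. The deposited distance also holds the difference between the scales of the tissues. After the median of each array was subtracted the distance was 6.76, and after quantile normalization over the 8 arrays it was 6.85. Between the flooded groups the distance was 5.07 as deposited. That this is less than in the controls follows from how the gene was chosen.

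Of the 24029 probe sets tested, 880 had a lower root change than cdn1 and 340 had a higher leaf change. These ranks use the values that chose the gene. The leaf rank also starts from control values at the level of the reporter probe sets, so it is not exact. The opposite directions in the tissues are what the gene was chosen for. At a Benjamini-Hochberg adjusted p under 0.05 in limma, 1029 probe sets (4.28% of those tested) fell in flooded root and 530 (2.21%) rose in flooded leaf. Of these, 58 (0.241%) did both, which is 5.64% of the root falls and 10.9% of the leaf rises. For comparison, 67 probe sets (0.279%) rose in both tissues. Of the 697 probe sets tied to 1 gene, 93 fell in root and 24 rose in leaf. Among the 696 of these other than cdn1, 7 did both. They were DFR, MFS, H6L, GLU and 3 genes with locus numbers only. Over all probe sets, 35 others had a root change at least as low and a leaf change at least as high as cdn1, 4 of them tied to 1 gene. The joint count of 58 in limma moved with single arrays. It was 0 without flooded leaf replicate 1 or 2 (222 and 186 at an unadjusted p under 0.05 in each tissue), 8 and 21 without control leaf replicate 2 and 1, 9 and 11 without flooded root replicate 1 and 2, and 168 and 276 without control root replicate 1 and 2.

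**Figure D2:**
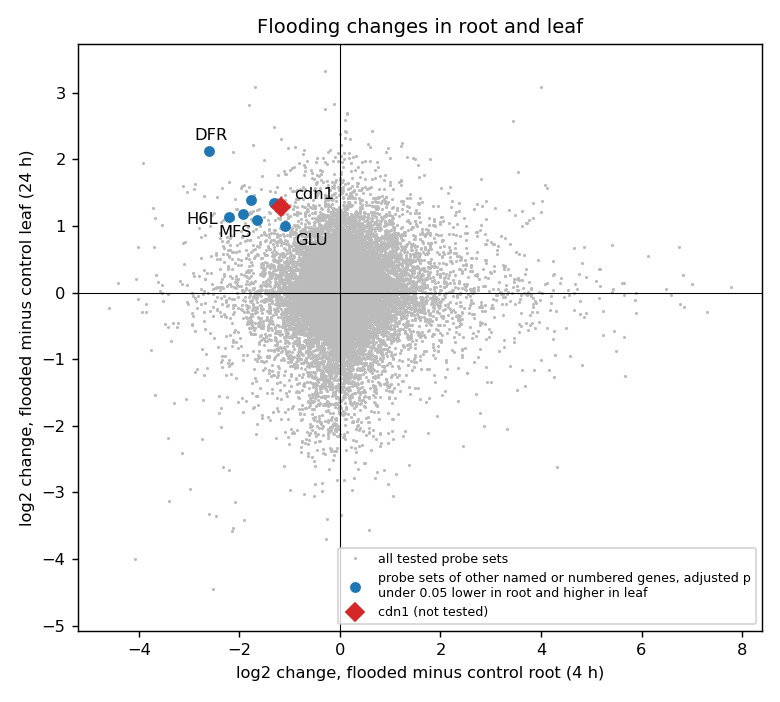
Each grey point is 1 of the 24029 tested probe sets, with its log2 change in flooded root on the horizontal axis and in flooded leaf on the vertical axis. The diamond is cdn1, at -1.17 and 1.29; it was chosen for these values and not tested. The 7 blue circles are probe sets of other single genes that passed the test lower in root and higher in leaf, and DFR, at -2.61 and 2.13, lies farthest out.

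The remaining genes of terpenoid synthesis were thinly covered by named probe sets. HMG-CoA reductase (hmg1, hmg2), which controls entry into the mevalonate pathway, farnesyl diphosphate synthase (FPPS) and the P450 genes CYP82D1, CYP82D2 and CYP82D109 were not analysed here, because no probe set could be tied to them. TPS1 is a symbol used for more than 1 kind of enzyme, a terpene synthase among them, and what this gene encodes is uncertain. Its log2 differences were -0.38 in root and 0.35 in leaf (limma adjusted p = 0.439 and 0.526). All its values, 4.74 to 5.50 in root and 3.57 to 4.11 in leaf, were dim. Without control root replicate 1 its root difference was -0.70. That value rests on control root replicate 2 alone, where TPS1 read 5.50 and reporter probe sets, which were brightest on this array, averaged 5.81.

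Factors of the WRKY family bind promoters of defence genes, and in tree cotton one of them is known to activate a delta-cadinene synthase gene. Whether any WRKY probe set named here reads the counterpart of that factor was not tested. Of the 3 WRKY probe sets, 0 passed the test in limma in root or leaf; at an unadjusted p under 0.05, 1 rose in each tissue. Over all probe sets 10.7% were called in root and 5.25% in leaf, and at an unadjusted p under 0.05 3116 of the 24029 rose in root and 2349 in leaf. The brighter probe set of WRKY15 read 8.13 and 8.24 in control leaf and 9.09 and 9.22 in flooded leaf. These groups did not overlap, as in 56.5% of all probe sets, and the log2 difference was 0.97 (SE 0.24, limma adjusted p = 0.0637). In root the same probe set read 10.92 and 10.29 in controls and 10.87 and 10.63 after flooding, with groups that overlapped. The second WRKY15 probe set stood at 0.84 in root and 0.42 in leaf, and the gene listed as WRKY (synonyms WRKY24 and WRKY71) at 0.28 and 0.35, none of them past the threshold. Without control root replicate 1 the second WRKY15 probe set passed in root (1.43, adjusted p = 0.00194), and without either control root array the brighter one passed in leaf (adjusted p = 0.00976).

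Phenylpropanoid and flavonoid enzymes make the other large class of phenolic compounds in cotton, from phenylalanine and not from farnesyl diphosphate. In root 1 of their 9 probe sets rose and 2 fell, and in leaf 2 rose and 0 fell (0 also fell at an unadjusted p under 0.05). Over all probe sets, 6.4% rose and 4.28% fell in root, and 2.21% rose and 3.05% fell in leaf. Of the 697 tied to 1 gene, from which the 9 come, 64 rose and 93 fell in root. In leaf 24 of them rose and 36 fell. The median log2 change of the 9 was -0.49 in root and 0.13 in leaf, against -0.02 and -0.04 over all probe sets. Over those tied to 1 gene it was -0.12 and -0.01. The 9 probe sets stand for 6 genes. All but DFR read higher on control root replicate 2 than on replicate 1, which lowers their root changes. Replicate 2 also had the brighter reporter probe sets, and a fit without replicate 1 rests on it alone for control root. Without control root replicate 1, 5 of the 9 fell in root, and without flooded root replicate 2, 1 fell. The rise in root was lost without any 1 of the 4 flooded arrays, and in leaf 0 or 1 rose without any 1 array other than the control root ones (2 at an unadjusted p under 0.05 each time).

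DFR, the dihydroflavonol reductase that leads to anthocyanins and condensed tannins, moved in the same 2 directions as cdn1. It read 10.44 and 9.70 in control root against 7.42 and 7.51 in flooded root, and fell by 2.61 on the log2 scale (SE 0.28, limma adjusted p = 0.00148). It read 7.78 and 7.32 in control leaf and 9.76 and 9.59 in flooded leaf, a rise of 2.13 (SE 0.28, limma adjusted p = 0.0119). In neither tissue did the groups overlap, as in 46.4% of all probe sets in root and 56.5% in leaf. The root change minus the leaf change was -4.73 (SE 0.40, limma adjusted p = 0.00135), in a contrast that called 8.26% of all probe sets. Unlike cdn1, DFR in control leaf was well above the reporter probe sets. Its leaf call was lost without control leaf replicate 2 (adjusted p = 0.0588) and without flooded leaf replicate 1 or 2 (0.139 and 0.0789).

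CHS3, a chalcone synthase, which makes the first flavonoid intermediate, rose in both tissues. It read 5.14 and 5.39 in control root against 6.06 and 6.49 in flooded root (log2 change 1.01, SE 0.23, limma adjusted p = 0.0295). In leaf it read 5.83 and 5.54 in controls and 6.98 and 6.72 after flooding (log2 change 1.16, SE 0.23, limma adjusted p = 0.0318). CHS3 was dim in control root, where both arrays lay below their reporter means (5.17 and 5.81). In flooded root, replicate 1 was below the 95th percentile of its reporter probe sets (6.09) and replicate 2 above its own (6.19). In control leaf, replicate 1 was above that percentile (5.63) and replicate 2 below its own (5.60). Both flooded leaf arrays were above theirs (5.45). The CHS3 groups did not overlap in either tissue, as in 46.4% of all probe sets in root and 56.5% in leaf. The test of the difference between tissues gave -0.16 (limma adjusted p = 0.857). Both calls were lost in a fit blocked on replicate number (adjusted p = 0.0525 in root and 0.06 in leaf) as well as without any 1 of the flooded root or flooded leaf arrays; the leaf call was lost also without any 1 of the control leaf arrays.

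CCoAMOT2, a methyltransferase of lignin monomer synthesis, read 11.67 and 12.05 in control root against 10.35 and 9.81 in flooded root. It fell by 1.78 on the log2 scale (SE 0.29, limma adjusted p = 0.00863), and the call was lost without flooded root replicate 2 (adjusted p = 0.0684). In leaf its groups overlapped (-0.38, adjusted p = 0.581), and the difference between tissues did not pass (-1.40, limma adjusted p = 0.0867). The 4 probe sets of CHS2, with CHS6 and CCR1, did not pass in either tissue. In root the CHS2 probe sets ranged from -1.10 to 0.19; CHS6 stood at -0.43 and CCR1, a cinnamoyl-CoA reductase of lignin synthesis, at -0.49. The lowest CHS2 value rests on control root arrays that read 5.52 and 7.53. Without control root replicate 1 that probe set stood at -2.10, a second one of CHS2 at -1.14 and CHS6 at -0.70. These values rest on control root replicate 2 alone, where reporter probe sets averaged 5.81, against 5.17 on replicate 1. On replicate 2 CHS6 read 5.30, below that average. The second CHS2 probe set read 6.13, between the average and their 95th percentile (7.12), and the first read 7.53, above both. Whether the brighter dim signals of replicate 2 account for these larger falls was not tested.

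Some lipoxygenases start jasmonate synthesis, and whether the lipoxygenase Lox1 is one of them was not tested. Of the 2 defence probe sets, Lox1 rose in root. It read 11.37 and 12.15 in control root against 13.65 and 13.47 in flooded root (log2 change 1.80, SE 0.32, limma adjusted p = 0.0121). Its direction in root was thus the opposite of that of cdn1, and its call was lost without flooded root replicate 1 or 2 (adjusted p = 0.0964 and 0.0639). In leaf Lox1 stood at 0.70 (adjusted p = 0.294). Chia7, a chitinase, stood at -0.64 in root (adjusted p = 0.0801, and 0.0276 after quantile normalization over the 8 arrays) and 0.05 in leaf (adjusted p = 0.947), and was bright on every array (12.27 to 13.46). Over all the connected lists together, 2 of 15 probe sets rose and 2 fell in root, and 2 rose in leaf. Of all probe sets, 6.4% rose and 4.28% fell in root, and 2.21% rose in leaf. Of the 697 tied to 1 gene, from which the lists were drawn, 64 rose and 93 fell in root, and 24 rose in leaf. A fit without control root replicate 1 rests on replicate 2 alone for control root, the array with the brighter reporter probe sets. Without control root replicate 1, 3 rose and 6 fell in root.

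The P450 reductases and the sterol branch bear on the steps after and beside delta-cadinene synthase; these genes were added after their values were seen. CPR1 and CPR2 are NADPH:cytochrome P450 reductases, which pass electrons to P450 enzymes such as those that oxidise delta-cadinene, as well as to P450 enzymes of many other pathways. Both rose in flooded leaf, where 2.21% of all probe sets rose. CPR1 read 10.24 and 10.51 in control leaf and 11.48 and 11.28 in flooded leaf (log2 change 1.01, SE 0.19, limma adjusted p = 0.03). CPR2 read 8.69 and 9.14 in control leaf and 10.05 and 9.90 in flooded leaf (log2 change 1.06, SE 0.24, limma adjusted p = 0.0468). Neither pair of leaf groups overlapped, as in 56.5% of all probe sets. In root they stood at -0.04 and 0.20, with groups that overlapped (adjusted p = 0.947 and 0.708), and the differences between tissues did not pass (limma adjusted p = 0.0581 for CPR1 and 0.174 for CPR2). Neither leaf call held without any 1 of the leaf arrays or of the flooded root arrays, nor in a fit blocked on replicate number (adjusted p = 0.0583 and 0.0693), and that of CPR2 was lost after quantile normalization (0.121 over the 8 arrays).

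Sterol methyltransferases act in the branch that draws farnesyl diphosphate into sterols. SMT2-1 read 11.24 and 11.06 in control root against 9.27 and 9.42 in flooded root, and fell by 1.81 on the log2 scale (SE 0.19, limma adjusted p = 0.00141). In leaf it read 10.74 and 10.61 in controls and 10.39 and 10.05 after flooding (-0.46, adjusted p = 0.247). The root change minus the leaf change was -1.35 (SE 0.27, limma adjusted p = 0.0255). SMT1 and SMT2-2 did not pass in either tissue. They stood at -0.22 and -0.62 in root and at -0.91 and -0.83 in leaf (limma adjusted p = 0.056 and 0.0621 in leaf). Without either control root array both passed in leaf (adjusted p = 0.0164 and 0.0169), and without control root replicate 1 SMT2-2 passed in root (-0.82, adjusted p = 0.019). These fits drop the spread of the control root pair, the widest of the 4 groups. In leaf all 3 sterol methyltransferase probe sets read lower on both flooded arrays than on both controls, where cdn1 read higher; 56.5% of all probe sets had leaf groups apart in one direction or the other.

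**Figure D3:**
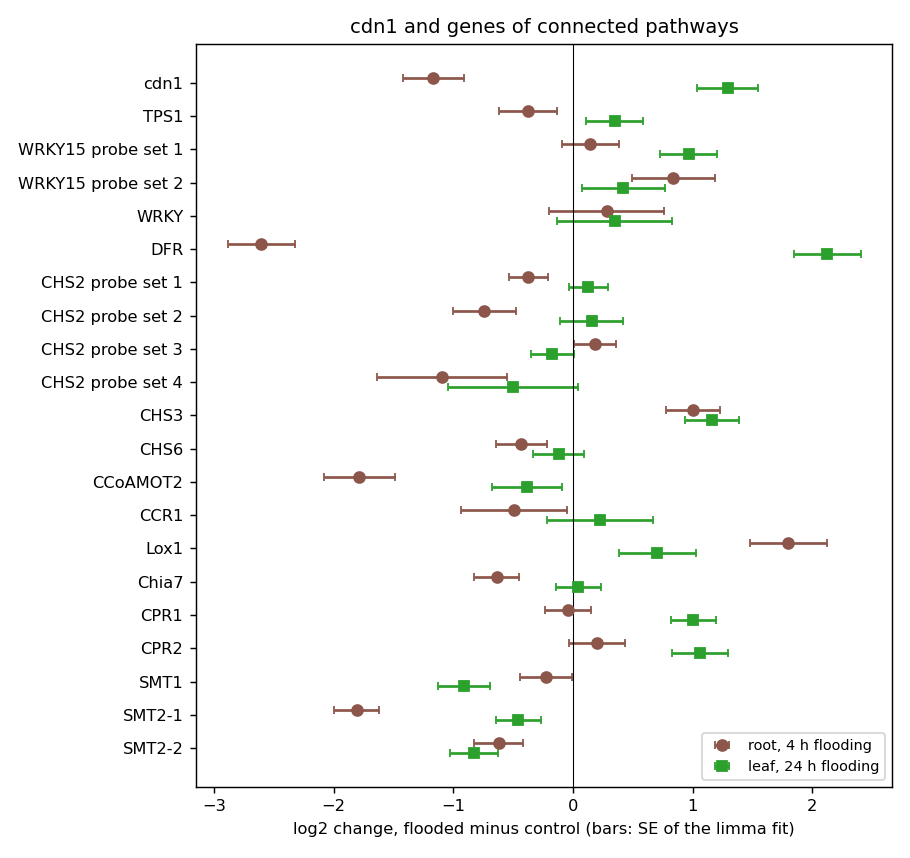
Log2 changes (flooded minus control) of cdn1 and of the 20 probe sets of connected pathways are shown for root (circles) and leaf (squares), with bars of 1 SE of the limma fit on each side. For cdn1 and DFR the root circle lies left and the leaf square right of 0 by more than 1 unit; CPR1 and CPR2 lie right of 0 in leaf only by that much, and SMT2-1 and CCoAMOT2 lie left of 0 in root.

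The patterns most like that of cdn1 were looked for among the other 696 probe sets tied to 1 gene, with Pearson's r over the 8 arrays as a description of likeness. With each array's median subtracted, r follows mainly the difference between root and leaf, and 115 of the 696 reached 0.9. The highest were susC, a sucrose synthase (0.996), GLU (0.995), LOC107934283 (0.994), LOC107959830 (0.992) and a probe set of CHS2 (0.992). LOC107959830 (4.71 to 5.02 in root, 3.04 to 3.13 in leaf) lay below the mean of the reporter probe sets on every array, and the CHS2 probe set (5.14 to 5.65 in root, 3.06 to 3.22 in leaf) lay near it in root and below it in leaf, so their likeness rests on dim values. In susC the root values were 9.77 and 9.66 in controls and 9.04 and 9.19 after flooding, and the leaf values were 5.21 and 4.83 in controls and 5.33 and 5.94 after flooding.

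With the mean of each tissue subtracted, r follows only the changes within root and within leaf, and 12 of the 696 reached 0.9 (median 0.11). The 5 highest were GLU (0.962), GST, a glutathione S-transferase (0.948), LOC107907413 (0.926), LOC107890851 (0.924) and LOC107931051 (0.922). DFR stood at 0.917 by this measure and at -0.04 by the first. GLU was the gene among the 5 highest by both measures; what it encodes is uncertain from its symbol. It read 12.12 and 12.11 in control root, 10.96 and 11.06 in flooded root, 6.65 and 6.79 in control leaf, and 7.53 and 7.92 in flooded leaf. The log2 differences of GLU were -1.10 in root and 1.01 in leaf, beside -1.17 and 1.29 for cdn1, and in leaf GLU lay well above the reporter probe sets. GST, at 13.45 to 13.77 in root and 7.95 to 8.64 in leaf, differed by only -0.23 and 0.50. A high r of this kind therefore holds for shape and not for size. The genes compared share the 8 arrays, so r also carries whatever differs between arrays.

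**Figure D4:**
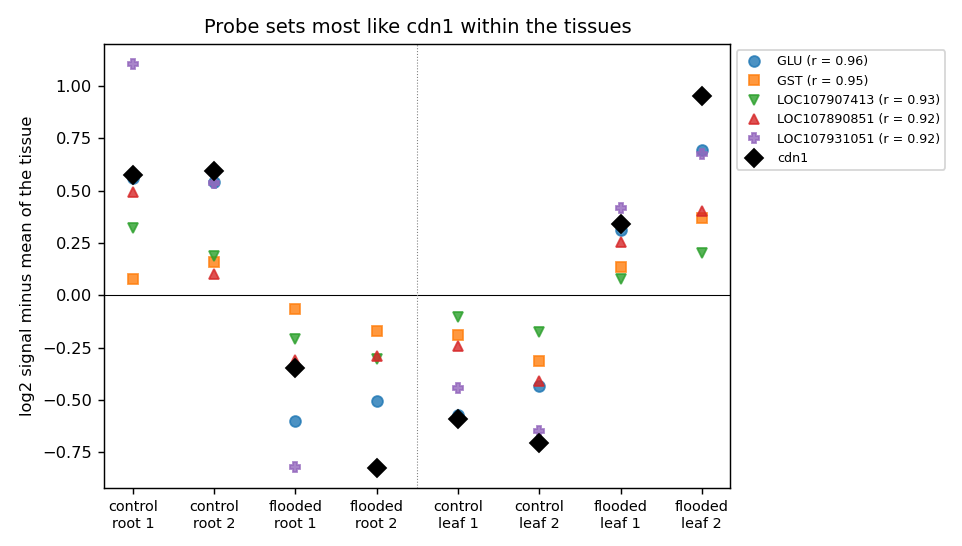
Log2 signals minus the mean of the same tissue are shown on the 8 arrays for cdn1 (diamonds) and the 5 probe sets with the highest r by that measure. Control root and flooded leaf points lie above 0 and flooded root and control leaf points below it, with GLU (r = 0.96) closest to cdn1 and GST in a narrower band.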

How the data were processed

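The values were log2 intensities as the authors deposited them, for 24132 probe sets on 8 arrays. The submitters' processing notes list RMA and limma without versions or roles. Detection calls were not used. Groups and replicate numbers came from the labels, which do not say how many plants went into an array, so p-values measure the spread between these arrays. Signals were analysed as deposited, without filter or pseudocount, after 103 control probe sets with names starting in AFFX were left out. The 52 reporter probe sets stayed among those tested. In limma 3.58.1 under R 4.3.3 all 8 arrays entered a model of 1 mean per group (4 residual degrees of freedom, prior 3.48), with Benjamini-Hochberg adjustment over 24029 probe sets at 0.05. An exact permutation test of 2 against 2 arrays could not pass, so calls rest on limma. The pooled spread hides unequal groups, whose SDs (root mean square over probe sets) were 0.208 in flooded root, 0.477 in control root, 0.193 in flooded leaf and 0.315 in control leaf.

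Genes came from the platform's probe table, matched for all 697 single-gene probe sets to the RefSeq table of Gossypium_hirsutum_v2.1; 46 probe sets had several genes and 23286 none. The gene and the lists were chosen with earlier results of these data known. Named were cdn1, the members of the terpene synthase and regulator lists, the called members of the phenylpropanoid and defence lists (others by value only), the 5 probe sets most like cdn1 by each of 2 measures, and the leaf marker. The lists of gossypol enzymes other than cdn1 and of isoprenoid precursors had 0 members. P450 reductases, sterol methyltransferases and the genes called lower in root and higher in leaf were named after their values were seen. Alternatives covered normalization, variance model, array weights, tissues alone, a filter on dim probe sets, a block on replicate number, and leaving out each array in turn.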

Additional observations from a re-analysis of the deposited data

Results flagged for a closer look

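In cdn1 both flooded root arrays lay below their controls and both flooded leaf arrays above theirs, and the root change minus the leaf change was -2.46; this difference was not tested, because the gene was chosen for it. For DFR the same difference was -4.73 and passed the test of the difference itself in limma (adjusted p = 0.00135). For SMT2-1 it was -1.35 (limma adjusted p = 0.0255), but this gene was added after its values were seen. Time of flooding differs with tissue and cannot be told apart from it.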

How the results depend on the processing

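The cdn1 differences, which chose the gene, were -1.40 to -1.15 in root and 1.17 to 1.38 in leaf over the other normalizations, and -1.41 to -0.93 in root and 0.99 to 1.60 in leaf with 1 array left out; array weights, single tissues and the block cannot move them by construction. Control root minus control leaf was 6.85 after quantile normalization over the 8 arrays and 6.76 with array medians subtracted, and 7.47 to 7.58 with 1 array left out. Numbers of called probe sets moved more: with array weights 1399 in root and 3034 in leaf, with each tissue fitted alone 1021 and 2106, and with a replicate block 811 in leaf. Of the 15 connected probe sets, 2 were called in root with array weights and 2 with the root alone, and 1 in leaf with the block. With 1 array left out, calls over all probe sets ranged from 997 to 6781 in root, 0 to 3245 in leaf (0 without flooded leaf replicate 1, with 2642 at an unadjusted p under 0.05) and 473 to 5294 for the difference between tissues, and those of the connected probe sets from 1 to 9 in root and 0 to 3 in leaf (3 at an unadjusted p under 0.05 where 0). A fit without 1 array takes the lone array to vary like the other groups. With array weights CCoAMOT2 lost its root call (adjusted p = 0.0652) and CHS3 its own (0.157), and with the root fitted alone Lox1 (0.062) and CHS3 (0.119) lost theirs. The root calls of DFR and SMT2-1 held under all alternatives run. In leaf the brighter WRKY15 probe set passed with quantile normalization over the 8 arrays (adjusted p = 0.0438) and within tissues (0.0339), array weights (0.0114), the leaf alone (0.0245) and the filter on dim probe sets (0.0466). SMT1 passed in the same 5 settings (0.0326, 0.0258, 0.0153, 0.037 and 0.0456), and SMT2-2 with array weights (0.0143) and the leaf alone (0.0417). Chia7 fell in root with quantile normalization over the 8 arrays (0.0276) and with the trended robust variance model (0.0487). Of 656 other values of the named genes, 591 stayed on their side of the threshold, 38 lost a call and 27 gained one, and 0 changed sign with a call. Most of the 591 were uncalled in the main fit and stayed uncalled. The 38 losses could come only from the minority of values called there. The replicate numbers share only a name: the deviations of same-numbered arrays correlated at -0.19 to 0.06 between groups, and the pairing was not used. Dim signals limit the leaf values: cdn1 in control leaf lay at the level of the reporter probe sets.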
